A study of Mus musculus with 18 samples.

Results

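The cells described here are bone marrow progenitors that carried RNA of S100a8 and S100a9, the paired calgranulin genes of neutrophils, together with Elane, the neutrophil elastase gene. They were chosen by a gate on raw counts of unique molecular identifiers (UMIs), the tags that mark each captured RNA molecule. A gated cell had at least 6 UMIs of S100a8 plus S100a9 and at least 1 of each, at least 1 of Elane, at most 1 of the monocyte receptor gene Csf1r, 0 of the erythroid factor gene Klf1 and fewer than 100 of the immunoglobulin gene Igkc. This gate held 58 of 8436 cells (0.688%). Because these 6 genes chose the cells, their levels are given as description only, and where a fit over all genes includes one of them its call is not read as a result.

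The samples were lineage-negative, cKit-positive (LK) bone marrow cells of 6 female C57BL/6 mice, a sorted fraction rich in stem and progenitor cells. The young group was mice 1, 3 and 5 (8 weeks, n = 3) and the aged group was mice 2, 4 and 6 (72 weeks, n = 3). The labels name no transgene and no treatment. Short-read 10x 3' single-cell counts and PacBio long-read counts from the same cDNA were available for each mouse. Neutrophils lose cKit as they mature, so the sort holds few late stages.

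The short-read table held 17757 genes, and a mouse gave 681 to 1919 cells and 3628043 to 17585424 UMIs. Median depth per cell lay between 4172 and 8498 UMIs, depending on the mouse. Gated cells were deeper than the rest, with a median of 9316 UMIs against 6364, and a median of 2526.5 genes. A barcode was shared with another library by 84 cells, and 0 of these were gated. Intervals and limits given for counts cover counting error only.

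Neutrophils arise from granulocyte-monocyte progenitors through promyelocyte and myelocyte stages. Primary granule proteins, such as myeloperoxidase and elastase, are made first. Secondary granule proteins, such as cathelicidin, lactoferrin and lipocalin 2, follow under the transcription factor C/EBPε. The products of S100a8 and S100a9 form the heterodimer calprotectin, which binds calcium, zinc and manganese and is among the most abundant proteins of the neutrophil cytosol.

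S100a8 lies at chr3:90668978-90670035 on the plus strand and S100a9 at chr3:90692632-90695721 on the minus strand (GRCm38.p6, deposited annotation), 22596 bases apart. Fcnb, which encodes the lectin ficolin B, lies at chr2:28076378-28084885 on the minus strand, Wfdc21 at chr11:83746940-83752642 on the plus strand and Trem3 at chr17:48247777-48258841 on the plus strand. The sequences upstream of S100a8, S100a9 and Fcnb are shown because the calgranulin pair defines the gate and Fcnb differed across the calgranulin ranges within it. They are read 5′ to 3′ on the gene's strand from RefSeq (GRCm38.p6), from 250 bases before the RefSeq start, and stop where the deposited gene model begins. Capitals mark matches to GAGGAAGT (a PU.1-like motif) or TTNNGCAA (a C/EBP-like motif) on either strand; PU.1 and C/EBP proteins are factors of myeloid cells.
S100a8 chr3:90668821-90668977, plus strand: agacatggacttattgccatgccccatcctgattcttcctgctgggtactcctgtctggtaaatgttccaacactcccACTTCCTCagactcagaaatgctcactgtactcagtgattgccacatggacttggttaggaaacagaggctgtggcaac
S100a9 chr3:90695722-90695971, minus strand: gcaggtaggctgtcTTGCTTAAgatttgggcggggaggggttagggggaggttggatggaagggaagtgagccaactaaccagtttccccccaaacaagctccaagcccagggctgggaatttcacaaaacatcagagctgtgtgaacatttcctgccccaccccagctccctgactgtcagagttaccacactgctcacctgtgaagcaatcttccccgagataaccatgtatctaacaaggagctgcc
Fcnb chr2:28084886-28085128, minus strand: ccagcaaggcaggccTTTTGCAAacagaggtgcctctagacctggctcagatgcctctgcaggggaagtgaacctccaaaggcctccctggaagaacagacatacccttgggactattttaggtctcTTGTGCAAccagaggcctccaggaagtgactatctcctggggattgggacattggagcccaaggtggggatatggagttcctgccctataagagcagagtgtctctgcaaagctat

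S100a8 had the PU.1-like match on the minus strand, 172 to 165 bases before the RefSeq start, and TATAAA 30 to 25 bases before it. S100a9 had a C/EBP-like match on the minus strand 236 to 229 bases before its start. Fcnb had C/EBP-like matches 235 to 228 and 123 to 116 bases before its start. Each motif occurred in 4 of the 21 genes with a promoter entry among the 25 genes highest in gated cells over other granulocyte cells. Over 32851 promoters of the same length, searched on both strands, 2.44% held GAGGAAGT, 9.56% TTNNGCAA and 12.4% TATAAA. The 3 motifs did not overlap one another in these windows, and a match describes letters and not binding.

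Gated cells were found in 5 of 6 mice. Mouse 1 had 15 of 1659 cells (0.904%, exact 95% interval 0.507 to 1.49%), mouse 3 had 3 of 1533 (0.196%) and mouse 5 had 1 of 956 (0.105%) among the young. Among the aged, mouse 2 had 23 of 1688 (1.36%, interval 0.866 to 2.04%), mouse 4 had 16 of 1919 (0.834%) and mouse 6 had 0 of 681, which allows a share of up to 0.441% by a limit of 3 counts and 0.540% by the exact interval. Thus mice 1, 2 and 4 supplied nearly all of the cells, and each age held mice with high and with low shares. The mean share was 0.401% ± 0.438 in young and 0.732% ± 0.687 in aged mice (SD, n = 3 each). The difference of 0.331 percentage points was smaller than the spread between mice (two-sided exact permutation p = 0.7, where 0.1 is the smallest p this design allows). Without mouse 2 the difference was 0.0154 percentage points, and without mouse 6 it was 0.697. With mice 1 and 2 both left out it was 0.267 (exact permutation p = 1.0). The mice with most gated cells also gave the most cells, and the 3 libraries with the fewest gated cells had median depths from 4172 to 7157.5 UMIs per cell. With every cell thinned to 2000 UMIs before the gate, the difference was 0.202 percentage points (exact permutation p = 0.7).

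**Figure D1:**
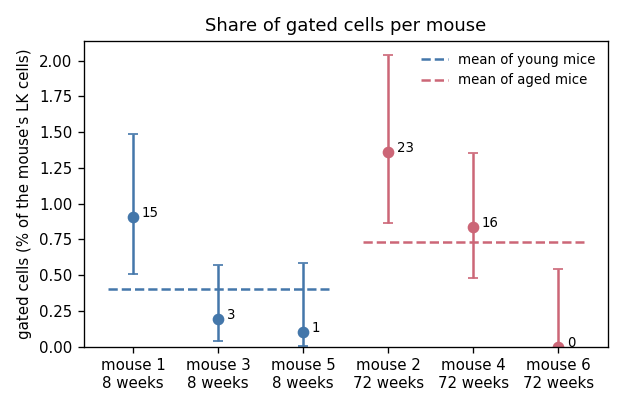
The share of gated cells within each mouse's LK cells, in percent, with exact 95% binomial intervals as bars and dashed lines at the means of the young and aged mice. Mice 1, 2 and 4 sit between 0.834 and 1.36%, and mice 3, 5 and 6 at or below 0.196%.

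The gated cells held 4475 of the 7515 S100a8 UMIs in the whole table (59.5%) and 585 of the 715 S100a9 UMIs (81.8%). In mouse 1 a gated cell carried 7 to 191 S100a8 UMIs (median 58) and 1 to 45 S100a9 UMIs (median 4). In mouse 2 the range was 7 to 302 for S100a8 (median 75) and 1 to 65 for S100a9 (median 6). In mouse 4 it was 6 to 157 for S100a8 (median 38) and 1 to 25 for S100a9 (median 2). The 3 cells of mouse 3 had 10 to 33 S100a8 UMIs and at most 3 S100a9 UMIs, and the cell of mouse 5 had 18 and 1. Ranges therefore overlapped fully between the mice with many gated cells, and S100a8 exceeded S100a9 by 7.65-fold in summed UMIs, with ratios of 8.11, 6.70 and 10.4 in mice 1, 2 and 4 and of 11 and 18 in the few cells of mice 3 and 5.

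**Figure D2:**
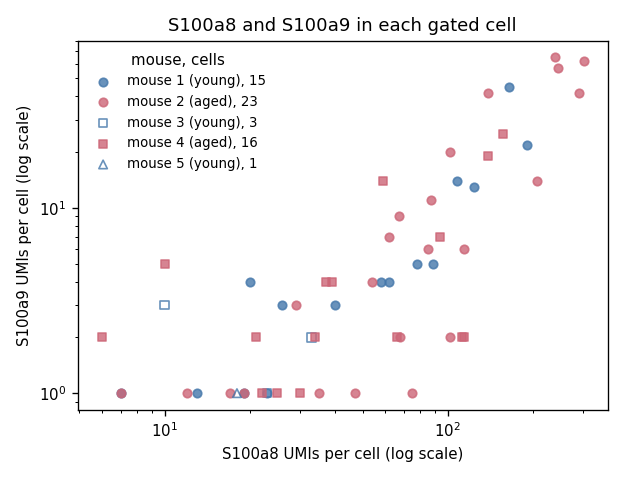
S100a8 UMIs (horizontal, log scale) against S100a9 UMIs (vertical, log scale) in each of the 58 gated cells, with a marker for each mouse. S100a9 lay below S100a8 in every cell and reached 65 UMIs in mouse 2.

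Detection of S100a9 followed the S100a8 count. Among cells that met the other limits, S100a9 was seen in 7 of 279 cells with 1 S100a8 UMI (2.51%), in 14 of 34 cells with 20 to 39 (41.2%) and in 21 of 22 cells with 80 or more (95.5%). The requirement for S100a9 therefore set much of the size of the gate. A further 87 cells had 6 or more S100a8 UMIs and met every other limit but had no S100a9 UMI, and their median S100a8 count was 13. In these cells Wfdc21 stood at 413 CPM (UMIs scaled to 1e+06 UMIs), Fcnb at 91.4 CPM and Trem3 at 337 CPM, against 828, 331 and 429 CPM in the pooled gated cells. Cells with S100a8 alone were thus lower in Wfdc21 and Fcnb and nearer in Trem3, by description only, but they also carried less S100a8. Those with 6 to 19 S100a8 UMIs had 351 CPM of Wfdc21 and 75.8 CPM of Fcnb. Gated cells with a sum of 6 to 19 had 399 and 49.9 CPM, so at a like count Fcnb was not lower without S100a9. The lower bound on the sum was of little weight: 3 gated cells had a sum of 6 to 11, and 4 cells had a sum of 3 to 5 and met the other limits. A Klf1 UMI kept out 5 cells, and Csf1r kept out 0.

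The markers Wfdc21, Fcnb and Trem3 took no part in the gate, but they came with the label and were named with these data in view, so their levels describe the cells and are no independent check of the label. Wfdc21, a gene of the whey acidic protein family, was seen in 56 of 58 gated cells at 956, 892 and 681 CPM in mice 1, 2 and 4. Fcnb was seen in 42 cells at 280, 493 and 218 CPM, and Trem3, a receptor of the TREM family, in 53 cells at 345, 516 and 385 CPM. All 3 were far above cells outside the gate, where the same mice had 12.3 to 26 CPM of Wfdc21, 1.61 to 5.55 CPM of Fcnb and 37.1 to 50.2 CPM of Trem3. Trem3 was shared more widely than the other 2, with a UMI in 49.9% of the S100a8/S100a9-low granulocyte cells described below, at 118 to 122 CPM. In erythroid cells, which should lack these RNAs, 1.44% of 1248 cells had a Wfdc21 UMI, 0.321% an Fcnb UMI and 5.37% a Trem3 UMI at a median of 8412.5 UMIs. An S100a8 UMI was seen in 5.61% of the same cells, and an Elane UMI in 45 to 82.6%, depending on the mouse. An Elane UMI by itself therefore does not set a cell apart from erythroid cells. Whether free RNA, doublets or low expression gave these UMIs was not tested. One gated cell of mouse 4 went against the label, with 10 S100a8 and 5 S100a9 UMIs among 8374 but 1 Elane, 2 Mpo and 0 Wfdc21, Fcnb, Trem3 and Pglyrp1 UMIs. Results that rest on this cell are also given without it, an alternative chosen after seeing the data. Kit, the gene of the sorted receptor, was seen in 13 of 58 gated cells at 21.6, 41.8 and 19.3 CPM, against 35.5 to 45.1 CPM in the granulocyte cells below.

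The comparators were a pair of populations, each rebuilt by a count rule. S100a8/S100a9-low granulocyte cells (1066 cells, median 9553.5 UMIs) had Elane, Cebpe and Ms4a3 UMIs and a calgranulin sum under 6. They are a mixture that also holds cells with eosinophil, basophil and mast cell RNA. Monocyte cells (141 cells, median 10800.0 UMIs) had Irf8 and at least 2 Csf1r UMIs. Levels were summed per mouse over mice 1, 2 and 4, the mice with at least 10 gated cells, and ratios are log2 of CPM + 10. A gene counted as higher or lower where it differed at least 2-fold in the same direction in each of these 3 mice, without a test. Of 4511 genes with a mean of at least 20 CPM, 49 were higher than in the S100a8/S100a9-low cells (1.09%) and 32 were lower (0.709%), and the median log2 ratio over all of them was -0.05.

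Several secondary granule and other late granulocyte genes were higher in gated cells. Of 17 members measured, 11 passed the level of 20 CPM, and of these 8 were higher and 0 lower. Some, such as Fcnb and Camp, passed only through the gated cells and so had to be higher. Of the 8 members with at least 20 CPM in the S100a8/S100a9-low cells themselves, 6 were higher and 0 lower, against 0.593% higher among 4551 genes at that level. The 6 were Hp, Pglyrp1, Wfdc21, Trem3, Mgst1 and Mgst2. Wfdc21 and Trem3 were named with these data in view, and the whole list was chosen with earlier results of these data known. The counts are therefore a description and no independent check. Hp, the gene of haptoglobin, stood at 733, 1092 and 707 CPM in gated cells of mice 1, 2 and 4, against 228, 233 and 170 CPM in S100a8/S100a9-low cells. Pglyrp1, a peptidoglycan recognition protein of granules, stood at 1279, 1343 and 597 CPM against 360, 401 and 217 CPM. The 87 cells with S100a8 and no S100a9 UMI, outside both populations, had 697 CPM of Pglyrp1. Camp, which encodes cathelicidin, stood at 35.9, 65.1 and 32.1 CPM against at most 1.07 CPM. For Hp, Pglyrp1 and Camp the gated cells of every mouse exceeded the S100a8/S100a9-low cells of every mouse. The share of all genes for which this held was not computed.

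The group was incomplete. Ltf, the gene of lactoferrin, and Mmp8, the neutrophil collagenase gene, had 0 UMIs in 543396 UMIs of gated cells. Lcn2, the gene of lipocalin 2, stood at 7.19, 32.5 and 19.3 CPM, against 16.3 to 20.9 CPM in S100a8/S100a9-low cells, and these ranges overlapped. Ngp, the neutrophilic granule protein gene, had 6 UMIs in 6 cells. Cd177, Itgb2l, Orm1 and Olfm4 had 0 long reads in each mouse and were not analysed in short reads. The expression of late granule genes was therefore uneven: Fcnb, Wfdc21, Hp and Pglyrp1 were high, Camp was low and Ltf was below detection.

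Primary granule genes were abundant in both populations. Of 14 that passed the level, 2 were higher in gated cells and 0 lower, with a median log2 ratio of 0.80. One of the 2 was Elane, a gene of the gate. The other was Prtn3, the gene of proteinase 3, at 7475, 9562 and 6495 CPM against 3719, 4048 and 3182 CPM. Mpo, the gene of myeloperoxidase, stood at 15423, 19179 and 10902 CPM against 9672, 10295 and 7007 CPM, and Ctsg, the gene of cathepsin G, at 9264, 11119 and 9001 CPM against 5043 to 5788 CPM. Both were higher in each mouse by less than 2-fold. Bpi, which encodes a bactericidal granule protein, had 0 UMIs in gated cells.

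Genes of the mature neutrophil differed among themselves. Cxcr2, the chemokine receptor of circulating neutrophils, had 1 UMI in 1 of 58 cells, and Itgam, which encodes CD11b, had 5 UMIs in 5 cells. Csf3r, the receptor gene for granulocyte colony-stimulating factor, was seen in 27 cells at 108, 65.1 and 38.5 CPM, against 33.5 to 44.6 CPM, and in 4.09% of erythroid cells. Of 4 mature neutrophil and tertiary granule genes that passed the level, 1 was higher and passed only through the gated cells, namely G0s2, an inhibitor of triglyceride lipase, at 115, 93 and 45 CPM against 5.33 to 17.9 CPM. Of 5 genes of the NADPH oxidase, the complex that makes superoxide, 0 were higher by the rule, at a median log2 ratio of 0.82. Its Cyba stood at 769, 1111 and 617 CPM against 330 to 483 CPM, while Cybb, the catalytic subunit, was at 28.7, 41.8 and 0 CPM.

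**Figure D3:**
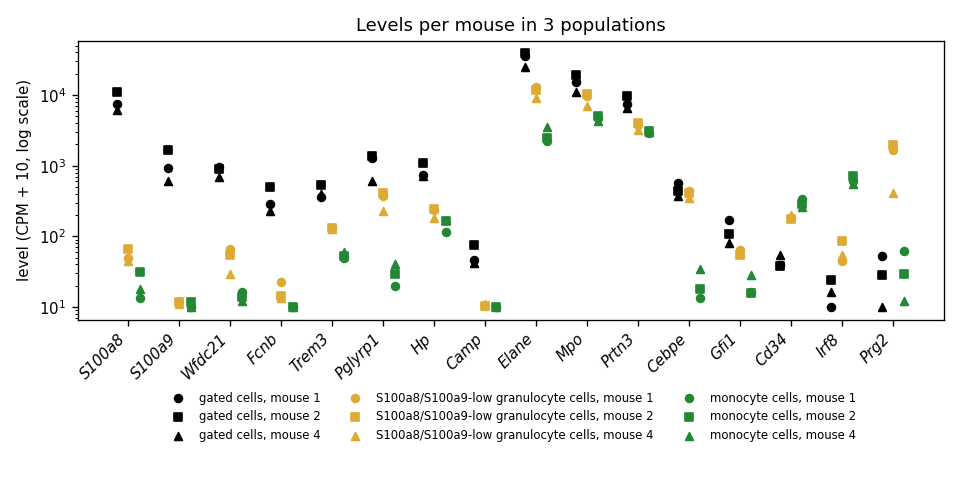
Levels per mouse (CPM + 10, log scale) of marker, granule and other named genes in gated cells, S100a8/S100a9-low granulocyte cells and monocyte cells of mice 1, 2 and 4, with a point for each mouse and population. Wfdc21 at 681 to 956 CPM and Fcnb at 218 to 493 CPM sit far above both comparators in every mouse.

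Surface genes gave further differences. Of 12 adhesion and surface genes, 4 were higher and 1 lower, and of the 9 with at least 20 CPM in S100a8/S100a9-low cells 2 were higher. Ly6c2, which encodes a Ly6C antigen, stood at 3277, 3998 and 1972 CPM against 542 to 686 CPM, and Vcam1, an adhesion molecule, at 71.9, 158 and 77.1 CPM against 7.58 to 9.95 CPM. Ly6c2 was not particular to the gate: the 87 cells with S100a8 and no S100a9 UMI, outside both populations, had 2515 CPM. Clec4a2, a C-type lectin receptor, stood at 187, 256 and 193 CPM against 22.7 to 25 CPM. Hsd11b1, which regenerates active glucocorticoid, stood at 158, 205 and 141 CPM against 40.1 to 41.2 CPM. Vcam1 passed the level only through the gated cells. The populations did not overlap between mice for any of these named genes. They were chosen with their levels in view, so the separation is a description and no further support. The share of all genes for which it held was not computed. Gsr, glutathione reductase, was also higher, at 827, 1018 and 591 CPM against 286 to 351 CPM, as was Mgst2, a microsomal glutathione transferase, at 187, 288 and 218 CPM against 46.4 to 53.8 CPM.

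Genes of earlier and of other myeloid cells were lower. Cd34, a surface marker of early progenitors, was seen in 10 of 58 gated cells at 28.7, 27.9 and 45 CPM, against 168 to 189 CPM. Sox4, a factor of early progenitors, stood at 0, 0 and 51.4 CPM against 59.2 to 173 CPM. Without the cell of mouse 4 that lacked the markers, mouse 4 had 6.79 CPM of Cd34 and 20.4 CPM of Sox4. Of 4 stem and multipotent progenitor genes that passed the level, 2 were lower and 0 higher, at a median log2 ratio of -1.53. The eosinophil genes Prg2 and Prg3 and the mast cell and basophil genes Mcpt8, Prss34, Cpa3 and Fcer1a were also lower; Prg2 stood at 43.1, 18.6 and 0 CPM against 1663, 1930 and 402 CPM. These differences describe the mixed comparator as much as the gated cells. Of 16 interferon response genes 4 passed the level, and Ifitm1 and Ifitm3 were lower.

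Transcription factor genes of granulocytes differed little. Of 13 that passed the level, 0 were higher and 1 was lower, at a median log2 ratio of 0.05. The lower gene was Irf8, which drives monocyte and dendritic cell fate, at 0, 13.9 and 6.42 CPM against 35.1 to 74.7 CPM. Cebpe, required for secondary granules, stood at 568, 428 and 366 CPM against 335 to 426 CPM, where the comparator had been chosen for a Cebpe UMI. Gfi1, a repressor needed for neutrophils, was seen in 35 cells at 158, 97.6 and 70.7 CPM against 44.6 to 54.6 CPM. Genes of the secretory pathway (16 passed), of S phase (19) and of G2/M (14) had 0 higher and 0 lower.

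Against monocyte cells the contrast was wider. Of 4582 genes, 130 were higher in gated cells (2.84%) and 109 lower (2.38%), with a median log2 ratio of -0.08. Of 14 primary granule genes 9 were higher, and of 11 secondary granule genes 9 were higher, with median log2 ratios of 1.62 and 2.72; some of these, such as Fcnb at 0 CPM in monocyte cells, passed the level only through the gated cells. Of 10 monocyte genes 7 were lower, at a median of -3.45, a list that includes Irf8 and Csf1r, which chose the monocyte cells. Ly86, a monocyte gene outside both rules, stood at 0, 4.65 and 0 CPM in gated cells against 163, 205 and 111 CPM. Ccr2, Ctss and Cx3cr1 had 0 UMIs in gated cells.

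Of the other S100 genes none followed S100a8 and S100a9 to a like degree. S100a11 stood at 1114, 1171 and 1054 CPM in gated cells against 691 to 724 CPM in S100a8/S100a9-low cells, a difference under 2-fold. S100a10, which binds annexin A2, was lower, at 28.7, 18.6 and 83.5 CPM against 155 to 189 CPM, and mouse 4 had 54.3 CPM without the cell that lacked the markers. S100a6 and S100a4 stood at 6.42 CPM or less in gated cells. S100a8 and S100a9 themselves stood at 7345, 11175 and 6200 CPM and at 906, 1669 and 597 CPM, as the gate requires.

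RNA of other cell types was low but present in gated cells. Of 10 B cell and plasma cell genes, 4 had 0 UMIs, among them Cd79a and Ebf1, and the summed level was 323, 2622 and 296 CPM in mice 1, 2 and 4. Much of it was Igkc, which the gate limits. The 9 genes without Igkc summed to 165, 744 and 167 CPM in gated cells, to 126, 671 and 113 CPM in S100a8/S100a9-low cells and to 440, 942 and 381 CPM in monocyte cells. Over all LK cells outside the gate they summed to 1719, 13035 and 1915 CPM. The sum was thus highest in mouse 2 in every population and also differed between populations. The 13 erythroid genes summed to 359, 116 and 231 CPM, with Klf1 at 0 by the gate, and the 7 eosinophil genes to 43.1, 37.2 and 0 CPM. Of the T and NK cell list only Nkg7 was abundant, at 3141, 3110 and 2673 CPM, while Trbc1, Trbc2, Klrd1, Il7r and Gzma had 0 UMIs. Nkg7 was seen in all 58 gated cells and in 98.0% of S100a8/S100a9-low cells, there at 1604, 1521 and 1234 CPM. Both granulocyte populations thus shared it, and it is not read as RNA of T or NK cells. Of the gated cells 2 were among the 5% of all LK cells with the most UMIs. The part of free RNA and of doublets in these sums was not tested.

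Within the gate the calgranulin count ranged from 8 to 364 UMIs per cell, with a median of 64. Cells were divided into ranges of 6 to 19 UMIs (9 cells), 20 to 99 (31 cells) and 100 or more (18 cells), whose median depths were 9204.0, 9037.0 and 9757.5 UMIs. No mouse held 5 cells in both the lowest and the highest range, so levels were pooled over mice and no test was made. Fcnb stood at 49.9, 218 and 639 CPM (Poisson 95% intervals 13.6 to 128, 167 to 279 and 527 to 767). A single cell of mouse 2 held 38 of the 114 Fcnb UMIs of the highest range, and without it the level there was 453 CPM (357 to 566). Wfdc21 stood at 399, 843 and 997 CPM, Hp at 511, 734 and 1160 CPM, Clec4a2 at 87.3, 169 and 336 CPM and Cyba at 599, 723 and 1138 CPM. Summed secondary granule genes stood at 2744, 4154 and 6058 CPM, and by mouse at 4204, 3787 and 6190 in mouse 1, 4009, 5028 and 6642 in mouse 2 and 1166, 3659 and 4642 in mouse 4. The lowest range was therefore below the middle one in mice 2 and 4 and not in mouse 1. It rested on 2, 3 and 2 cells of mice 1, 2 and 4, among them the cell of mouse 4 that lacked the markers. Primary granule genes differed less, with Ctsg at 9754, 9576 and 10042 CPM and Mpo at 13421, 14861 and 16542 CPM.

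Other genes ran the opposite way. Tmsb10, a thymosin that binds actin monomers, stood at 424, 221 and 118 CPM, Ifitm3 at 200, 87.8 and 39.2 CPM and Cd34 at 112, 24.6 and 11.2 CPM. The cell of mouse 4 without the markers was in the lowest range, where the levels without it were 376 CPM for Tmsb10, 125 CPM for Ifitm3, 41.8 CPM for Cd34, 55.7 CPM for Fcnb and 3036 CPM for the summed secondary granule genes. Over the 58 cells the Spearman correlation of Fcnb CPM with calgranulin CPM was 0.61, and within mice 1, 2 and 4 it was 0.39, 0.78 and 0.49. For Tmsb10 it was -0.39 over all cells and -0.71, -0.07 and -0.29 within these mice. Both quantities share the depth of the cell, so these values are descriptive. The genes named for the ranges came from the lists and from the contrasts above.

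**Figure D4:**
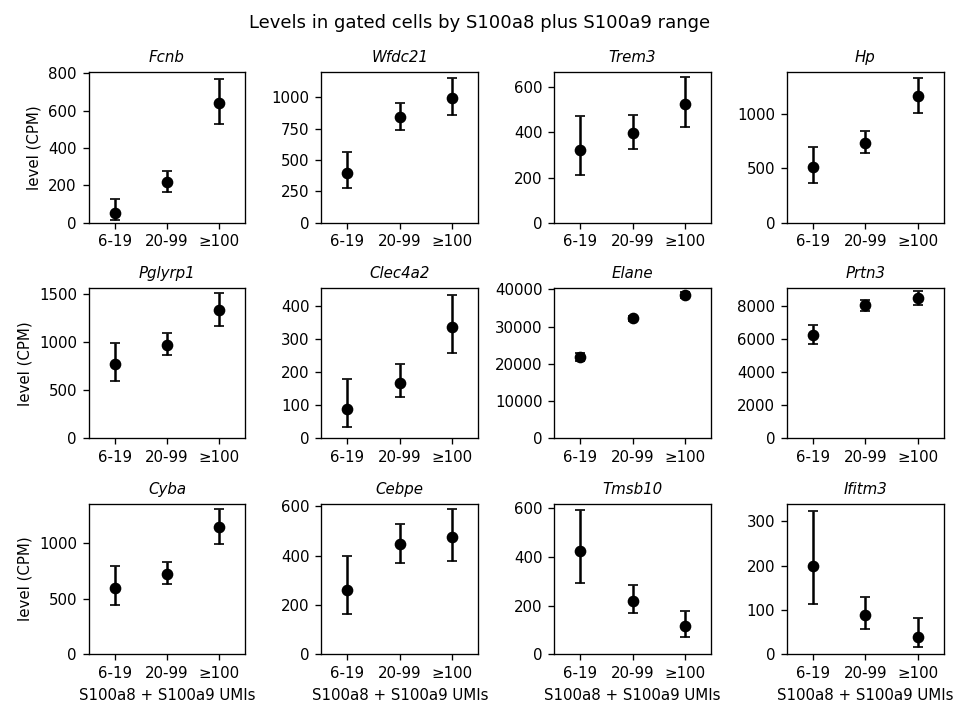
Levels (CPM, linear scale from 0) of named genes in gated cells with 6 to 19, 20 to 99 and 100 or more S100a8 plus S100a9 UMIs, pooled over mice with Poisson 95% intervals as bars. Fcnb runs from 49.9 to 639 CPM across the ranges, and Tmsb10 runs from 424 to 118 CPM.

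UMIs of late secondary granule genes were seen in part of the gated cells. Camp was seen in 14 of 58 cells, of which 0 were in the lowest range, 4 in the middle and 10 in the highest. Chil3, which encodes the chitinase-like protein Ym1, was seen in 10 cells, 1, 3 and 6 in the ranges. Camp and Chil3 were seen together in 2 cells. Counts this low can miss RNA in a cell, so a subset that shares this RNA was not shown. A UMI of Camp, Chil3 or Ngp was present in 24 gated cells, a set chosen after its values were seen, and 15 of these were in the highest range. Their median calgranulin count was 121 UMIs, against 35.5 in the other 34 gated cells, at median depths of 9338.5 and 9316.0 UMIs. Fcnb stood at 559 CPM in these 24 cells, which include the cell with 38 Fcnb UMIs, and 178 CPM in the others, and Hp at 1200 and 600 CPM. The 24 cells came from mouse 1 (4), mouse 2 (15) and mouse 4 (5). In S100a8/S100a9-low cells 0.563% had a Camp UMI and 0.0938% a Chil3 UMI, and in erythroid cells 0.240% and 0.160%.

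The share of gated cells in the highest range was 26.7, 0 and 0% in young mice 1, 3 and 5 and 39.1 and 31.3% in aged mice 2 and 4. The range is cut from genes of the gate, so the values are a description with no test. The difference of 26.3 percentage points rests on the 3 cells of mouse 3 and the cell of mouse 5, and with mice 1, 2 and 4 alone it was 8.52 percentage points.

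Cycling RNA was present in part of the gated cells. After thinning each cell to 2000 UMIs, 21 of 58 gated cells (36.2%) held at least 3 UMIs of 20 G2/M genes, against 41.2% of S100a8/S100a9-low cells, 45.7% of monocyte cells and 42.4% of the remaining LK cells. Without thinning 96.6% of gated cells reached 3 UMIs. After thinning, 3 UMIs were reached by 6 of 15 cells in mouse 1, 12 of 23 in mouse 2 (52.2%), 3 of 16 in mouse 4 (18.8%) and 0 in mice 3 and 5. Mouse 6 had no gated cell, so 3 young mice were set against 2 aged ones. The aged mice exceeded the young by 22.1 percentage points (exact permutation p = 0.4, where 0.2 is the smallest p possible). With mice 1, 2 and 4 alone the difference was -4.54. For S phase genes the thinned share was 77.6%, and the difference by age was -10.1 percentage points. No direction by age therefore held.

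Age was compared across genes on UMIs summed over the gated cells of each mouse, with edgeR's quasi-likelihood test. Only mouse 1 against mice 2 and 4 could enter, with 15, 23 and 16 cells, so the young mouse has no replicate and was assumed to vary as the aged ones do. The spread behind the p-values came from 2 aged mice and was in large part shared across genes. A p-value therefore does not measure the spread of its own gene between the aged mice. Iglc1 was among the called genes, at 195 CPM in aged mouse 2 and 0 CPM in aged mouse 4. Of 2605 genes, 16 passed an adjusted p of 0.05 (0.614%), 13 of them higher in the aged mice, and 15 were outside the gate's genes, since Igkc was among the 16. DESeq2 called 0 genes, and adding mice 3 and 5 left 1, Igkc of the gate. With mouse 1 as the only young mouse, aged mice that both lie on the same side of it are no sign of an age difference.

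None of the marker genes passed. Wfdc21 had an aged-minus-young log2 difference of -0.27 ± 0.37 (SE), Fcnb of 0.38 ± 0.36 and Trem3 of 0.40 ± 0.36, each with an edgeR adjusted p of 0.999. Of 12 primary granule genes tested 0 were called, and of 11 secondary granule genes 1 was called, which was Chil3. Chil3 had 0 UMIs in the 15 cells of mouse 1, 26 UMIs in 7 of 23 cells of mouse 2 and 5 UMIs in 3 of 16 cells of mouse 4. Of its 31 UMIs 14 came from a single cell, and 0 UMIs in mouse 1 allow up to 21.6 CPM, against 121 CPM in mouse 2 and 32.1 CPM in mouse 4. Its edgeR adjusted p was 0.0472, and the call was lost with DESeq2, with a minimum of 12 calgranulin UMIs, with immunoglobulin genes left out and with all mice. Chil3 was near 0 in S100a8/S100a9-low cells of every mouse, at 0.455 CPM or less.

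Several other calls had the same high mouse in S100a8/S100a9-low cells. Dusp1, a phosphatase of the immediate early response, stood at 28.7, 4.65 and 347 CPM in gated cells of mice 1, 2 and 4 and at 38.3, 17.8 and 279 CPM in S100a8/S100a9-low cells. Junb stood at 35.9, 60.4 and 334 CPM and at 58.2, 49.6 and 244 CPM in the same order. Ier2, also an immediate early gene, stood at 115, 177 and 797 CPM and at 187, 139 and 528 CPM. Mouse 4 was the high mouse for all 3 genes in both populations. Iglc1, an immunoglobulin light chain gene, stood at 0, 195 and 0 CPM in gated cells and at 0.797, 117 and 5.33 CPM in S100a8/S100a9-low cells, so mouse 2 was the high mouse. Neat1, a nuclear noncoding RNA, and mt-Atp6, a mitochondrial subunit of ATP synthase, were highest in mouse 4 at 424 and 578 CPM, and Ighm, an immunoglobulin heavy chain gene, was highest in mouse 2 at 483 CPM. Gm10076, Rpl10-ps3, Rpl37rt and Rnaset2a have close copies elsewhere in the genome, so their counts are uncertain. The order of the 3 mice differed between the populations for Crip1, Ighm, Ier2 and Junb. It was the same for the other called genes outside the gate, with ties counted as the same. Among these Chil3 was near 0 in S100a8/S100a9-low cells, so its order there carries no weight. How often the order was the same over all genes was not computed.

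**Figure D5:**
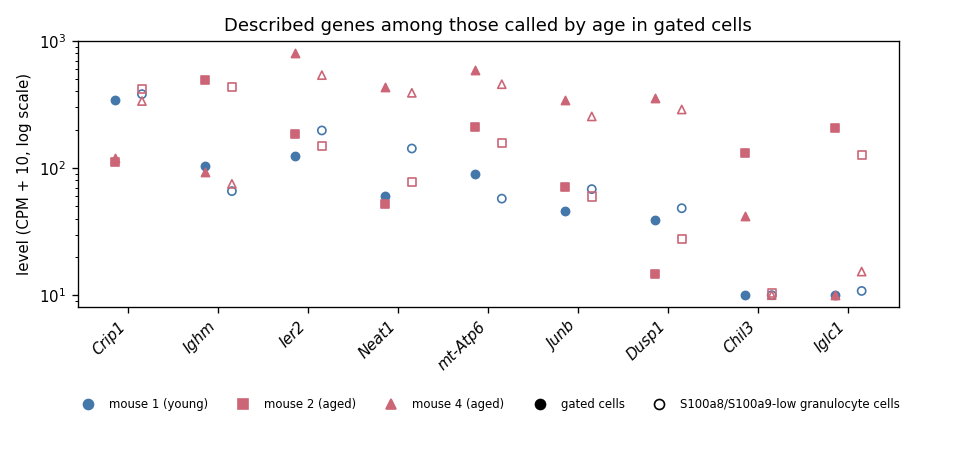
Levels per mouse (CPM + 10, log scale) of the described genes among those called by age in gated cells, with filled symbols for gated cells and open symbols for S100a8/S100a9-low granulocyte cells of mice 1, 2 and 4. Open and filled symbols of a mouse lie close together for Junb, and for Dusp1 in mice 1 and 4 more than in mouse 2. For Chil3 and Crip1 they lie apart in mice 2 and 4 and close together in mouse 1.

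Whether age acted differently in gated cells was examined as the interaction of age and population, with the mouse as a replicate block. The main fit again held mouse 1 as the only young mouse, so age and a trait of mouse 1 cannot be told apart. Against S100a8/S100a9-low cells 2 of 8633 genes passed (0.0232%). Actb, the gene of beta-actin, stood at 1502, 804 and 1054 CPM in gated cells of mice 1, 2 and 4 and at 875, 1240 and 949 CPM in S100a8/S100a9-low cells, a difference of log2 -0.99 (edgeR adjusted p = 0.00103). Crip1, a small LIM domain protein, stood at 331, 102 and 109 CPM and at 371, 407 and 326 CPM, a difference of log2 -1.60 (edgeR adjusted p = 0.0142). Without the replicate block, with DESeq2 or with all mice 0 genes passed. Fcnb was the list gene nearest to the threshold, at log2 2.13 (edgeR adjusted p = 0.146), and it stood at 12.8, 4.10 and 3.20 CPM in S100a8/S100a9-low cells. The cell with 38 Fcnb UMIs took the gated level of mouse 2 from 332 to 493 CPM. Against monocyte cells 0 of 4285 genes passed with edgeR (0.0%), 175 genes were below 0.05 before adjustment, and 0 passed with DESeq2. No gene came near the threshold there. The Crip1 difference was log2 -1.53, drawn from the same gated sums, so it adds no support.

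Long reads were summed over all LK cells of a mouse, 1236696 to 2112841 reads on genes, so a change in the number of gated cells and a change in RNA per cell cannot be told apart. S100a8 stood at 39.8, 4.55 and 33.3 long reads per 1e+06 reads in young mice 1, 3 and 5 and at 103, 16.2 and 10.7 in aged mice 2, 4 and 6. S100a9 stood at 4.73, 1.95 and 3.85 in the young and 10.4, 1.62 and 0.628 in the aged, and the ages overlapped for both. In short reads over all cells S100a8 stood at 127, 27.9 and 13.4 CPM in the young and 289, 124 and 2.21 CPM in the aged. Mouse 2 was highest and mice 1 and 2 together held the most in long reads, while mouse 5 ranked higher in long than in short reads.

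Fcnb stood at 8.99, 0.650 and 5.13 long reads per 1e+06 reads in the young and 21.2, 2.43 and 0 in the aged. Wfdc21 was at 4.94 or less, with 0 reads in mice 3 and 6. Trem3 had 1 long read in all 6 mice, although short reads gave 20.1 to 58.6 CPM over the same libraries. Of 9244 genes 0 passed the age test in long reads with edgeR (0.0%), 154 were below 0.05 before adjustment, and 0 passed with DESeq2. Without a filter on low counts 60 were called. Mpo stood at 11632, 9453 and 11693 long reads per 1e+06 reads in the young and 17348, 10915 and 10451 in the aged, an aged-minus-young difference of log2 0.22 ± 0.20 (SE; edgeR adjusted p = 1.00). Mouse 2 was the high mouse, and without it the aged mean was 10683, against 10926 in the young.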

How the data were processed

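The deposited short-read counts are UMIs per gene and cell. The authors used Cell Ranger 3.0.2 and then Seurat 3, and removed cells with few genes or a high mitochondrial share. The deposited long-read counts are reads per gene and run, aligned with minimap2 and counted with HTSeq by the authors on GRCm38.p6. The deposited annotation was used for positions only. Between 47.4% and 52.4% of long reads fell on no gene and were left out, and runs on Sequel and Sequel II were summed per mouse. The unnumbered Sequel columns were assigned to the remaining sample of their age.

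Cells were tied to mice by the suffix of their names, whose number was read as that of the mouse. The members and gene lists were chosen with earlier results of these data known. UMIs were summed per mouse over gated cells of mice with at least 10, and tested with edgeR 4.0.16 (filterByExpr, TMM, quasi-likelihood, Benjamini-Hochberg adjustment at 0.05) in R 4.3.3; scripts were checked on simulated counts. Shares were compared with exact permutation tests over mice (Python 3.11.15, scipy 1.17.1). Cells were thinned with seed 42 for cycle shares. No doublet caller was used; leaving out the 5% deepest cells per mouse removed 1 gated cell, in mouse 3. Populations of a mouse come from its own library, so the mouse was the block of the interaction tests. The genes named are the markers, the gate's genes, list members with high levels, up to 25 genes highest against other cells, up to 10 called by age in each direction, and the genes nearest the threshold where few were called. List members named for low or absent RNA, and Camp, Chil3 and Ngp as a set, were chosen after their values were seen. Alternatives were DESeq2 1.42.0, other filters, other gates, thinning and each mouse left out. Some of the genes called by age are counted but not reported here by name.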

Additional observations from a re-analysis of the deposited data

Results flagged for a closer look

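The interaction test with edgeR flagged Actb and Crip1 between gated cells and S100a8/S100a9-low granulocyte cells. Mouse 1 was the only young mouse in this fit, against aged mice 2 and 4, so age and a trait of mouse 1 cannot be told apart. For Actb the difference of the log2 age differences was -0.99, and for Crip1 it was -1.60. Actb was lower in gated cells of mice 2 and 4 than of mouse 1, and was higher in S100a8/S100a9-low cells of mice 2 and 4 than of mouse 1. Crip1 was lower in gated cells of mice 2 and 4, at 102 and 109 CPM against 331 CPM in mouse 1, and it was seen in 37 of 58 gated cells. With all mice that had a gated cell, the Actb difference was -0.09 and the Crip1 difference -1.24, and neither passed.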

How the results depend on the processing

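The count of 16 genes by age in gated cells became 0 with DESeq2, 9 without a filter on low counts and 1 with all mice that had a gated cell, the last an alternative chosen after seeing the data. It was 15 with at least 12 calgranulin UMIs, 12 without immunoglobulin genes and 16 without the deepest cells, an omission that removed no gated cell of mice 1, 2 and 4 and so could not change it. The 2 interaction genes against S100a8/S100a9-low cells became 0 without the replicate block, 0 with DESeq2 and 0 with all mice. Against monocyte cells the count stayed at 0 in every setting run, with or without the replicate block. Long-read calls went from 0 to 60 without a filter. The causes were not tested. The cell cycle difference of 22.1 percentage points reversed to -10.1 for S phase genes and to -4.54 in mice 1, 2 and 4; these mice alone, and Sequel II runs alone, were also added after seeing the data. Leaving out each mouse in turn gave 0.0154 to 0.697 points for the share of gated cells, 21.9 to 35.2 for the highest calgranulin range, 5.42 to 38.8 for cell cycle RNA, and 0 calls in long reads. Other gates left the difference in share between 0.202 and 0.939 points, the last without the S100a9 requirement; this gate, the gate with no limit on Klf1 and the omission of mice 1 and 2 were chosen after seeing the data. No value could be had for the age tests on summed gated cells with a mouse left out, with a term for mice 1 and 2, or after thinning before the gate, since no residual degree of freedom remained. With 15 gated cells in mouse 1, a gene at 0 UMIs there may stand at up to 21.6 CPM.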
